A study of Homo sapiens with 6 samples.

Results

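NEAT1, MALAT1 and 7 proteins that build paraspeckles or act on the 3′ ends of NEAT1 were examined in RNA-seq libraries of THP-1 cells, an established human monocytic leukaemia line. The 9 genes are NEAT1, MALAT1, NONO, SFPQ, PSPC1, RBM14, NUDT21, CPSF6 and TARDBP, taken by symbol from a deposited table of 25336 genes. They were chosen with the difference between the groups already known, so their counts, CPM and FPKM in this comparison are given as a description, with no p-value. The groups were cells given pristimerin, a quinone methide triterpenoid from plants (n = 3 libraries), and control cells (n = 3). The group of each library was taken from its description, since the column titles of the deposited tables name no treatment. Those titles are the name of the cell line for the pristimerin libraries and the letter A for the control libraries, each followed by a number. Every direction given below rests on the descriptions. The series was deposited for a study of pristimerin, erastin-induced ferroptosis, ATF3 and SLC7A11, but the labels name no erastin, dose, exposure time or vehicle for these libraries. The labels do not say whether the replicates were separate cultures, so the spread between libraries may be technical.

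Paraspeckles are nuclear bodies assembled on the long isoform of the non-coding RNA NEAT1, which the related proteins NONO, SFPQ and PSPC1 coat. NEAT1 also gives a short, polyadenylated isoform from the same start, and use of its 3′ end competes with production of the long one. The long isoform of NEAT1 and the MALAT1 transcript, a resident of nuclear speckles, end without a poly(A) tail: RNase P cuts them, and a triple helix of U-rich and A-rich stretches protects the end. The libraries were made from poly(A)-selected RNA, so the short NEAT1 isoform is selected by its tail, whereas the long isoform and MALAT1 can be held only by internal or end A-rich stretches. The counts are per gene and do not separate the isoforms.

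The 3′ end of the short NEAT1 isoform carries the elements read by 2 of the 7 proteins. NUDT21 and CPSF6 form cleavage factor I, which binds UGUA (TGTA in DNA letters) upstream of a poly(A) site. The last 300 bases of the annotated transcript that ends farthest downstream among the short ones (GENCODE release 29, chr11:65426214-65426513, plus strand, GRCh38) are shown because both proteins are reported to act there. Capitals mark TGTA and the poly(A) signal AATAAA.
NEAT1 short isoform, last 300 bases: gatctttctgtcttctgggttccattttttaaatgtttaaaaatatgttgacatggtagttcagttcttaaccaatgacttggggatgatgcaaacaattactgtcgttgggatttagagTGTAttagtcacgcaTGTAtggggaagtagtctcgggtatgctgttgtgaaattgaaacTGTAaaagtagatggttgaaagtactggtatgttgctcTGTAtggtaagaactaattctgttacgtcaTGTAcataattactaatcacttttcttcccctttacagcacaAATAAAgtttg
The window held 5 TGTA and 1 AATAAA, searched on the transcribed strand only, with no overlap between the 2 motifs. The first TGTA began 169 bases and the last 42 bases before the AATAAA. Of 192779 annotated transcripts of at least 300 bases, 3.13% had at least as many TGTA in their last 300 bases and 33.5% had an AATAAA there. Of the 8 annotated NEAT1 transcripts, 7 ended at or before the end of this window, and the remaining one, NEAT1-202, ran unspliced for 22743 bases.

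The stretches that close the long NEAT1 isoform and MALAT1 are shown because neither RNA ends in a poly(A) tail that the selection step could bind. Both windows end at the A-rich tract, NEAT1-202 at chr11:65445421-65445540 and MALAT1-202 at chr11:65505997-65506116 (plus strand, GRCh38, GENCODE release 29). Capitals mark the U-rich motif TTTTGCTTTT and the A-rich tract, searched as 5 or more A, GC and 4 A on the transcribed strand. Other U-rich stretches in the windows were not searched for and are left unmarked.
NEAT1-202: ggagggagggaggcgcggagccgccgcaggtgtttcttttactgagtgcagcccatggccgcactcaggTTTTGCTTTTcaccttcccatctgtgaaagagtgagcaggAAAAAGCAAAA
MALAT1-202: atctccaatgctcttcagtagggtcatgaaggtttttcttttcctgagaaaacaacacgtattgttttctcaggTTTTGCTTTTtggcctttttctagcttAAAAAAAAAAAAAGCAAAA
The motif and the tract were 30 bases apart in NEAT1 and 17 bases apart in MALAT1, and 45 of 120 positions carried the same base. Those 45 include the tract positions at which both windows were made to end. No level for unrelated sequences was computed, so likeness of the windows is not read from this. The annotated MALAT1-202 ran on for 353 bases after the tract. The tract occurred in 0.437% of 206694 annotated transcripts. The U-rich motif within 100 bases before such a tract occurred in 12 transcripts (0.00581%).

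NEAT1 was the member that differed most between the groups. It lies on chromosome 11 at 65422774 to 65445540 on the plus strand (ENSG00000245532, hg38). It had 6692, 5003 and 4988 counts in pristimerin libraries, against 11829, 13508 and 9217 counts in control libraries. Scaled by TMM, a normalisation that sets library totals to a common composition, this was 223, 193 and 211 CPM (counts scaled to a common library size) with pristimerin, against 434, 469.9 and 476 CPM in control. Every pristimerin library lay below every control library. The mean was 209 ± 15.0 CPM with pristimerin and 459.7 ± 22.8 CPM in control (SD, n = 3 each). The log2 fold change was -1.14 (SE 0.065), so that pristimerin libraries held 45.5% of the control level. In these bulk libraries, fewer cells that make an RNA and less of it per cell cannot be told apart. No other gene of the table overlapped NEAT1.

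MALAT1, which lies 52.1 kb downstream of NEAT1 on the same strand (ENSG00000251562, chromosome 11, 65497688 to 65506516), showed a smaller difference. It had 33.4, 40.7 and 32.5 CPM in pristimerin libraries, against 35.3, 44.4 and 49.8 CPM in control libraries. The groups overlapped, since pristimerin replicate 2 lay above control replicate 1. The mean was 35.5 ± 4.49 CPM with pristimerin and 43.1 ± 7.32 CPM in control (SD, n = 3 each), and the log2 fold change was -0.28 (SE 0.111). TALAM1, the antisense transcript of MALAT1, had 3 to 11 counts per library, 0.742% of the CPM of MALAT1, and was not tested.

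The ratio of NEAT1 to MALAT1 counts does not depend on how libraries are scaled. It was 6.68, 4.75 and 6.50 in pristimerin libraries, against 12.3, 10.6 and 9.56 in control libraries, with no overlap. NEAT1 made up 1.38, 1.21 and 1.31% of all long non-coding RNA (lncRNA) counts with pristimerin, against 2.53, 2.66 and 2.73% in control. All lncRNA genes together made up 1.59, 1.56 and 1.57% of the counts with pristimerin, against 1.76, 1.82 and 1.77% in control. With NEAT1 left out these shares were 1.57, 1.54 and 1.55% with pristimerin, against 1.71, 1.77 and 1.72% in control, so the lower lncRNA share was present without it.

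**Figure D1:**
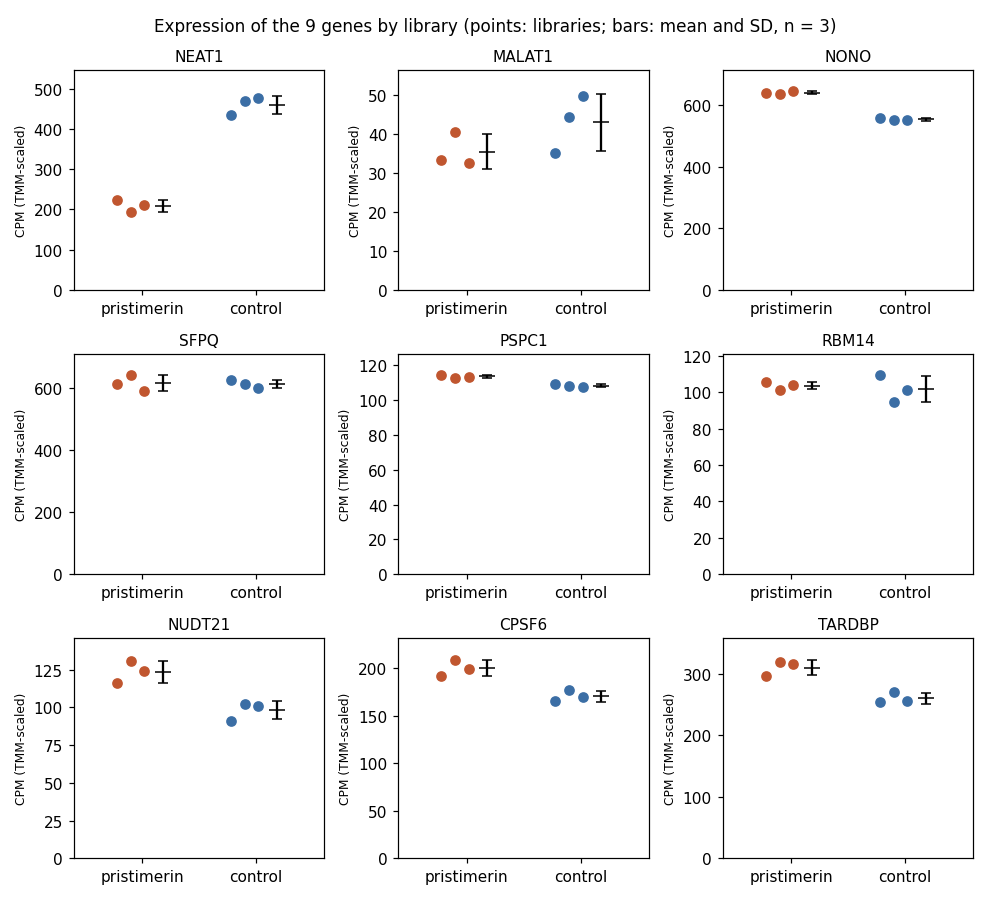
TMM-scaled CPM (y axis, from 0) of each of the 9 genes in the 3 pristimerin and 3 control libraries; points are libraries and bars the mean and SD. NEAT1 sits between 193 and 223 CPM with pristimerin and between 434 and 476 CPM in control, whereas the points of MALAT1, SFPQ and RBM14 overlap between the groups.

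NONO, SFPQ and PSPC1 are RNA-binding proteins of the DBHS family that pair with each other. NONO and SFPQ are needed for paraspeckles and for keeping the long NEAT1 isoform, while PSPC1 is a component that paraspeckles can form without. NONO (ENSG00000147140, chromosome X) had 638, 634 and 644 CPM with pristimerin, against 559, 551 and 549.6 CPM in control, with no overlap and a log2 fold change of 0.21 (SE 0.053). SFPQ (ENSG00000116560, chromosome 1) had 613, 643 and 592 CPM with pristimerin, against 626, 615 and 601 CPM in control. Its control values lay within the range of its pristimerin values, and the log2 fold change was 0.005 (SE 0.056). PSPC1 (ENSG00000121390, chromosome 13) had 115, 113 and 113 CPM with pristimerin, against 109, 108 and 107 CPM in control, a log2 fold change of 0.07 (SE 0.058). These PSPC1 values did not overlap on the TMM scale but did in the deposited FPKM, which averaged 23.0 ± 0.324 with pristimerin and 23.0 ± 0.320 in control (SD, n = 3 each).

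RBM14 is an RNA-binding protein with a prion-like domain that paraspeckle assembly requires. It lies on chromosome 11 (ENSG00000239306), 1193.9 kb from the start of NEAT1. It had 105, 101 and 104 CPM in pristimerin libraries, against 109, 94.4 and 101 CPM in control libraries, which overlapped. The log2 fold change was 0.03 (SE 0.066).

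NUDT21, CPSF6 and TARDBP act on the choice of 3′ end. NUDT21 is the subunit of cleavage factor I that reads UGUA, CPSF6 is its larger partner, and TARDBP (TDP-43) binds GU-rich RNA and has been reported to favour the short NEAT1 isoform. NUDT21 (ENSG00000167005, chromosome 16) had 116, 130.4 and 124 CPM with pristimerin, against 91.3, 102.5 and 101 CPM in control, a log2 fold change of 0.33 (SE 0.068). CPSF6 (ENSG00000111605, chromosome 12) had 192, 209 and 199.8 CPM with pristimerin, against 165, 177 and 169.9 CPM in control, a log2 fold change of 0.23 (SE 0.060). TARDBP (ENSG00000120948, chromosome 1) had 297, 319 and 316 CPM with pristimerin, against 255, 270.5 and 256 CPM in control, a log2 fold change of 0.25 (SE 0.058). In each of these 3 genes every pristimerin library lay above every control library. NUDT21 was the protein member with the highest log2 fold change and SFPQ the one with the lowest.

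Some of these values could hold reads of other genes, since the sources used here do not say whether counting used the strand. NUDT21 overlaps OGFOD1 on the opposite strand over 679 nt. OGFOD1 had 61.3 CPM, 55.5% of the CPM of NUDT21, and its own log2 fold change was 0.28 (SE 0.066). NONO overlaps ZMYM3 on the opposite strand over 333 nt, and ZMYM3 had 15.6% of its CPM and a log2 fold change of 0.08 (SE 0.065). The genes that overlap TARDBP, PSPC1, MALAT1 and RBM14 had at most 1.2% of the member's CPM, and none overlapped NEAT1, SFPQ or CPSF6. Whether reads in an overlap were dropped is not stated either, and a low CPM of the overlapping gene does not show it. TALAM1 overlaps MALAT1 over 7205 nt, and RBM14-RBM4 overlaps RBM14 on the same strand over 13309 nt. The level of MALAT1, its ranks and its ratio to NEAT1 could therefore be affected, which was not tested. GENCODE release 29 lists 2 pseudogenes each named after PSPC1 and TARDBP and 1 each after NONO and SFPQ, so reads of these 4 genes may have been shared with copies.

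All 9 genes passed the filter on low counts. In edgeR's quasi-likelihood fit over 15305 genes with a Benjamini-Hochberg threshold of 0.05, NONO, NUDT21, CPSF6 and TARDBP were counted as higher with pristimerin. This makes 4 of 9, beside 14.5% of all genes tested. NEAT1 was counted as lower, 1 of 9, beside 15.1% of all genes tested, and SFPQ, PSPC1, RBM14 and MALAT1 were not past the threshold. The groups did not overlap in 5 genes that were higher with pristimerin, beside 21.0% of all genes, and in 1 that was lower, beside 22.3%. Over all genes, 2216 were higher and 2313 lower, against 1523 and 3052 with upper-quartile scaling and 1392 and 3219 with library totals. Because the genes were chosen with this comparison known, nothing is read from these counts. The median log2 fold change was 0.07 over the 9 genes and 0.21 over the 7 protein genes, beside -0.01 over all genes tested.

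The calls of NONO, CPSF6 and MALAT1 and the signs of SFPQ and RBM14 depended on the setting. These calls too are a description, since a call that holds across settings is no support for genes chosen with this comparison known. Scaled by library totals alone, or in the FPKM fits, NONO and CPSF6 were not past the threshold, so that 2 of the 9 genes were counted as higher. Beside this, 1392 of 15305 genes were higher with library totals. In the FPKM fits 1081 (pseudocount of 1) and 1084 (pseudocount of 0.1) of 16789 genes were higher. The settings in which MALAT1 was past it included upper-quartile scaling, library totals, either other low-count filter, and the fits without control replicate 1, without pristimerin replicate 2 or without both replicate 2 libraries. Across all settings NEAT1 had log2 fold changes of -1.21 to -1.06, MALAT1 of -0.40 to -0.15, NUDT21 of 0.25 to 0.39 and TARDBP of 0.18 to 0.30. SFPQ (-0.07 to 0.05) and RBM14 (-0.04 to 0.08) took either sign.

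Levels were compared between genes per length, in the deposited FPKM. SFPQ led in both groups, with 77.9 ± 3.42 FPKM under pristimerin and 81.5 ± 2.09 FPKM in control (SD, n = 3 each). NONO followed with 55.5 ± 0.404 FPKM under pristimerin and 50.5 ± 0.663 FPKM in control, and TARDBP with 49.0 ± 1.60 FPKM under pristimerin and 43.1 ± 1.69 FPKM in control. Below these 3, which lay apart from each other in either group, came PSPC1 and CPSF6 in both groups. With pristimerin NEAT1 had 8.96 ± 0.678 FPKM and stood in place 8 of 9, apart from RBM14 above it (15.6 ± 0.360 FPKM) and MALAT1 below it. In control it had 20.7 ± 0.988 FPKM and stood in place 6, where it overlapped CPSF6 above it (21.8 ± 0.836 FPKM) and lay apart from NUDT21 below it (17.0 ± 1.05 FPKM). MALAT1 was last in both groups, with 3.92 ± 0.494 FPKM under pristimerin and 5.00 ± 0.829 FPKM in control. The deposited FPKM divide NEAT1 by 22767 nt, which spans the long isoform, so that reads confined to the short isoform count for less per length. The other genes were also divided by a fixed length, 7720 nt for SFPQ and 11222 nt for NONO, and the order depends on these lengths. In CPM, NONO had 639 and SFPQ 616 with pristimerin, against 553 and 614 in control.

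Among 9115 lncRNA genes of the table, NEAT1 ranked 7 by CPM with pristimerin and 2 in control, and MALAT1 ranked 59 with pristimerin and 54 in control. Per length, in FPKM, NEAT1 ranked 98 with pristimerin and 33 in control, and MALAT1 ranked 269 with pristimerin and 234 in control. Of 2795 lncRNA genes tested, 111 were counted as higher (3.97%) and 464 as lower (16.6%), with a median log2 fold change of -0.19. Of 556 with a mean of at least 5 CPM, 64 were higher and 163 lower, with a median of -0.11. In that set NEAT1 had the 4th lowest log2 fold change and MALAT1 the 168th lowest, and NEAT1 was the lowest of the 14 genes with at least 100 CPM.

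**Figure D2:**
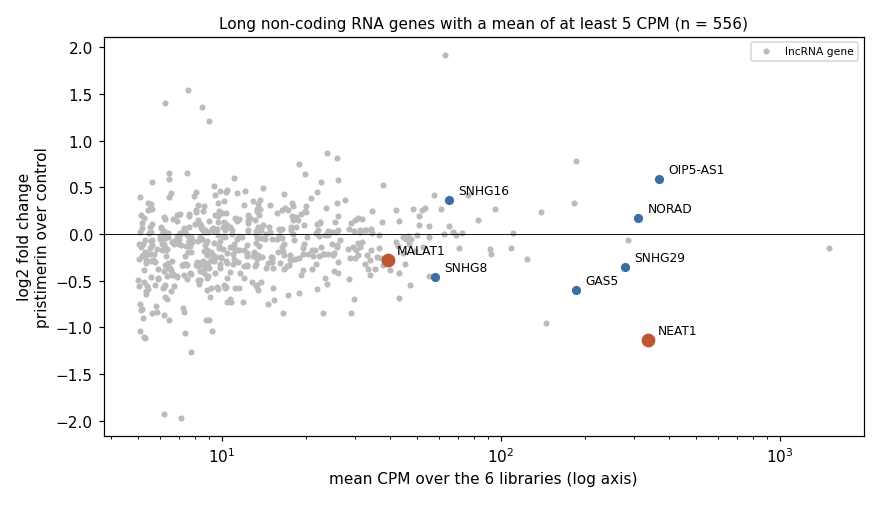
Log2 fold change, pristimerin over control (y axis), against mean CPM over the 6 libraries (x axis, log scale) for the 556 lncRNA genes that averaged 5 CPM or more. NEAT1 at -1.14 lies below the other genes of at least 100 CPM, MALAT1 at -0.28 lies among genes of like abundance, and OIP5-AS1 at 0.59 lies on the other side of 0.

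Other well-known lncRNA genes went both ways. Of 27 tested from a list of this kind, with mean levels of 1.08 CPM (MIR22HG) to 369 CPM (OIP5-AS1) and with TUG1 annotated as protein-coding, 5 rose and 7 fell, beside 14.5 and 15.1% of all genes, with a median log2 fold change of -0.10. OIP5-AS1, a lncRNA that sponges RNA-binding proteins and microRNAs, rose to 444 ± 39.9 CPM with pristimerin, against 296 ± 15.3 CPM in control (log2 fold change 0.59, SE 0.068, edgeR adjusted p = 7e-06). MIR155HG, the host transcript of miR-155, and SNHG16, a snoRNA host, also rose, by 0.58 (SE 0.149) and 0.36 (SE 0.069) on the log2 scale. GAS5, a growth-arrest snoRNA host, fell to 147 ± 5.23 CPM with pristimerin, against 224 ± 13.8 CPM in control (log2 fold change -0.61, SE 0.063, edgeR adjusted p = 2e-06). SNHG8 fell by 0.46 (SE 0.084) and SNHG29 by 0.36 (SE 0.063) on the log2 scale. SNHG8 overlaps PRSS12 on the opposite strand, which had 246% of its CPM, and both GAS5 and SNHG8 are uncertain because their loci overlap other genes. The number lower was 3 without control replicate 3 and 4 without control replicate 2, pristimerin replicate 1 or pristimerin replicate 3, and the number higher was 3 without control replicate 3. With upper-quartile scaling or library totals 3 were higher and 9 lower. In the FPKM fits 3 were lower, and 3 (pseudocount of 1) or 2 (pseudocount of 0.1) were higher.

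Proteins reported in paraspeckles other than the 7 above were mixed. Of 31 tested, 7 rose and 3 fell, beside 14.5% of all genes higher and 15.1% lower, with a median log2 fold change of 0.07. RBM3, a cold-inducible RNA-binding protein, rose to 639 ± 21.3 CPM with pristimerin, against 492 ± 11.8 CPM in control (log2 fold change 0.38, SE 0.056, edgeR adjusted p = 8.3e-05). The transcription factor RUNX3 (0.28, SE 0.078) and the splicing factor SRSF10 (0.28, SE 0.065) rose too. So did HNRNPK (0.17), which has been reported to block cleavage factor I at the short NEAT1 end, and HNRNPF, HNRNPR and HNRNPUL1 (0.19 to 0.27). HNRNPA1 (0.004), HNRNPH1 (0.02) and HNRNPH3 (-0.11) did not pass. ZC3H6, a zinc-finger protein, fell to 10.6 ± 0.338 CPM with pristimerin, against 14.5 ± 2.14 CPM in control (log2 fold change -0.46, SE 0.112, edgeR adjusted p = 0.0055). CIRBP, the other cold-inducible RNA-binding protein, fell by 0.23 (SE 0.078) and the FET-family protein EWSR1 by 0.16 (SE 0.056) on the log2 scale. The CIRBP call was lost without control replicate 2 (-0.23), control replicate 3 (-0.18), pristimerin replicate 2 (-0.13) or pristimerin replicate 3 (-0.25). The EWSR1 call was lost without pristimerin replicate 1 (-0.16), 2 (-0.14) or 3 (-0.15) and without control replicate 2 (-0.15) or 3 (-0.14). Over all alternatives, 5 settings lost the CIRBP call and 7 the EWSR1 call. With any one of control 2, control 3, pristimerin 2 and pristimerin 3 left out, 1 gene was lower. The number higher was 4 with upper-quartile scaling or library totals and 1 in either FPKM fit, and the number lower was 5 and 6 with those 2 scalings.

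Genes of cleavage and polyadenylation other than NUDT21 and CPSF6 mostly did not pass the test. Of 20 tested, 1 rose and none fell, beside the same 14.5 and 15.1% of all genes, with a median log2 fold change of 0.10. PPP1CA, a catalytic subunit of protein phosphatase 1, rose by 0.19 (SE 0.062, edgeR adjusted p = 0.026), and its call was lost without control replicate 2 (0.15), control replicate 3 (0.21), pristimerin replicate 1 (0.20) or pristimerin replicate 3 (0.21). Over all alternatives, 9 settings lost the PPP1CA call. At an unadjusted p under 0.05, 7 were higher and 0 lower, and at an adjusted p under 0.05 DESeq2 called 6 higher and 0 lower and limma-voom 1 higher and 0 lower. The number higher was 6 without control replicate 2, 2 without control replicate 1 or pristimerin replicate 1 or 2, and 0 without control replicate 3, with upper-quartile scaling, with library totals or in either FPKM fit.

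Of 20 tested proteins of nuclear speckles, the bodies that hold MALAT1, 10 rose and none fell, beside 14.5% of all genes higher and 15.1% lower, with a median log2 fold change of 0.19. BCLAF1, an RNA-processing factor, rose to 458 ± 38.2 CPM with pristimerin, against 350.1 ± 27.1 CPM in control (log2 fold change 0.39, SE 0.070, edgeR adjusted p = 0.00058). The splicing factors SRSF2 and SRSF1 rose by 0.32 (SE 0.057) and 0.30 (SE 0.073) on the log2 scale, and PNN, LUC7L3, PRPF4B, RBM25, SRRM1, THRAP3 and RNPS1 by 0.19 to 0.29. At an unadjusted p under 0.05 none was lower, and DESeq2 and limma-voom called 0 lower. The number higher was 6 with upper-quartile scaling, 5 with library totals and 3 in either FPKM fit.

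The machinery that forms and modifies the ends of MALAT1 and long NEAT1 held 18 tested genes, of which 2 rose and none fell, beside 14.5 and 15.1% of all genes, with a median log2 fold change of 0.11. POP1, a subunit of RNase P and RNase MRP, rose to 61.7 ± 1.19 CPM with pristimerin, against 46.2 ± 0.774 CPM in control (log2 fold change 0.42, SE 0.065, edgeR adjusted p = 0.00016). WTAP, part of the m6A methyltransferase complex, rose by 0.17 (SE 0.060), but its call was lost without control replicate 1 (0.15), control replicate 3 (0.18), pristimerin replicate 2 (0.15) or pristimerin replicate 3 (0.18). In all, 9 settings lost the WTAP call. WTAP overlaps SOD2 on the opposite strand, which had 90.7% of its CPM. At an unadjusted p under 0.05, 2 genes of this list were lower, DESeq2 and limma-voom called 0 lower, and upper-quartile scaling and library totals called 3 lower. Without control replicate 3, pristimerin replicate 2 or pristimerin replicate 3, 1 gene was higher. The number higher was also 1 with upper-quartile scaling, library totals, a minimum mean of 5 CPM or either FPKM fit.

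Of 14 transcription factors reported at the NEAT1 gene, 2 rose and none fell, beside 14.5 and 15.1% of all genes, with a median log2 fold change of 0.06. NFKB1, a subunit of NF-κB, rose to 42.1 ± 1.63 CPM with pristimerin, against 34.1 ± 1.97 CPM in control (log2 fold change 0.30, SE 0.076, edgeR adjusted p = 0.0068). The general GC-box factor SP1 rose by 0.26 (SE 0.061, edgeR adjusted p = 0.0045). At an unadjusted p under 0.05, 1 factor was lower, and DESeq2 and limma-voom called 0 lower. Without control replicate 2, 4 were higher and 1 lower, and neither FPKM fit called any factor higher. Among genes reported to be under the control of paraspeckles or SFPQ, 6 of 10 were tested and edgeR called none. At an unadjusted p under 0.05 the count was 0 in each direction, and DESeq2 and limma-voom called 0. Without the low-count filter edgeR called 1 higher. Of the tested genes, RIGI and CXCL1 averaged 0.405 and 0.594 CPM (SE 0.445 and 0.394), too low to show a moderate change. CXCL8, IFIH1, SLC7A2 and RPL3 averaged 3.95, 10.8, 15.6 and 2033 CPM.

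**Figure D3:**
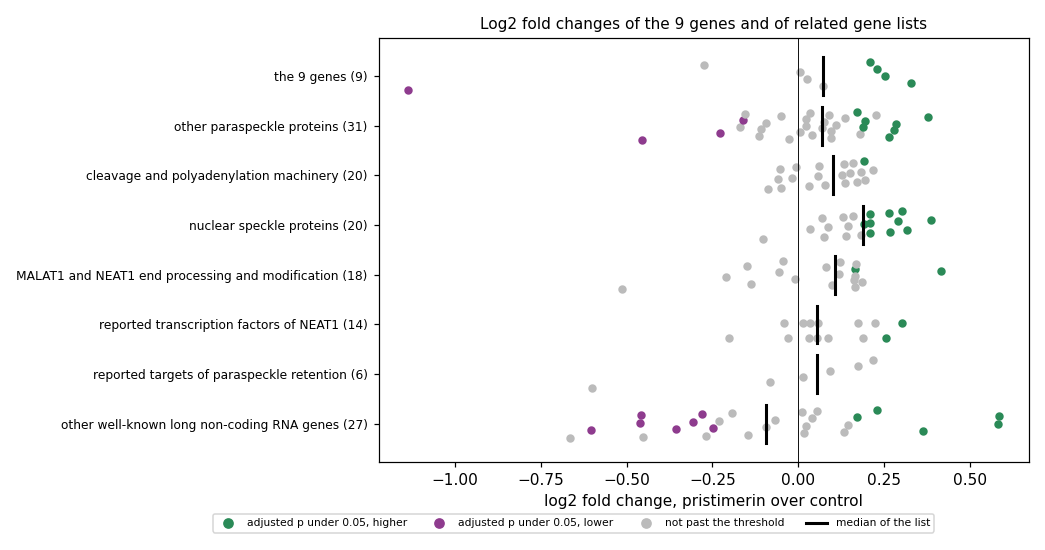
Log2 fold change, pristimerin over control (x axis), of the 9 genes and of each gene list (rows, with the number tested). Points are genes, coloured by whether they passed an adjusted p of 0.05, and black lines are medians, from -0.10 in the other lncRNA genes to 0.19 in the nuclear speckle proteins; NEAT1 lies below every listed gene.

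The region around NEAT1 and MALAT1 was examined to 200 kb on either side. Of 16 further tested genes described here, 2 rose and 1 fell, beside 14.5 and 15.1% of all genes, with a median log2 fold change of 0.04. EHBP1L1, a vesicle-trafficking protein gene 153.3 kb from the start of NEAT1, rose to 120.4 ± 5.55 CPM with pristimerin, against 86.7 ± 9.20 CPM in control (log2 fold change 0.47, SE 0.075, edgeR adjusted p = 0.00017). SIPA1, a Rap GTPase activator, rose by 0.34 (SE 0.095, edgeR adjusted p = 0.012). LTBP3, a latent TGF-β binding protein, fell by 0.36 (SE 0.126, edgeR adjusted p = 0.04), at 6.38 ± 1.06 CPM with pristimerin, against 8.19 ± 0.369 CPM in control. The LTBP3 call was lost without control replicate 1 (-0.32), control replicate 2 (-0.36), control replicate 3 (-0.37), pristimerin replicate 2 (-0.23) or pristimerin replicate 3 (-0.35). Over all alternatives, 9 settings lost it. LTBP3 is also uncertain because its locus overlaps another gene. On the side before NEAT1, POLA2, DPF2, TIGD3, SLC25A45 and FRMD8 had log2 fold changes of 0.12, -0.12, 0.44, -0.21 and -0.06 and did not pass. FRMD8 ends 9.2 kb before NEAT1. On the other side ZNRD2 (-0.04), MAP3K11 (0.13), PCNX3 (0.03) and RELA (0.05) did not pass. Nor did 4 genes of low abundance, ZNRD2-DT, FAM89B, RELA-DT and a lncRNA without a symbol, at -0.84, 0.51, -0.36 and 0.96.

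**Figure D4:**
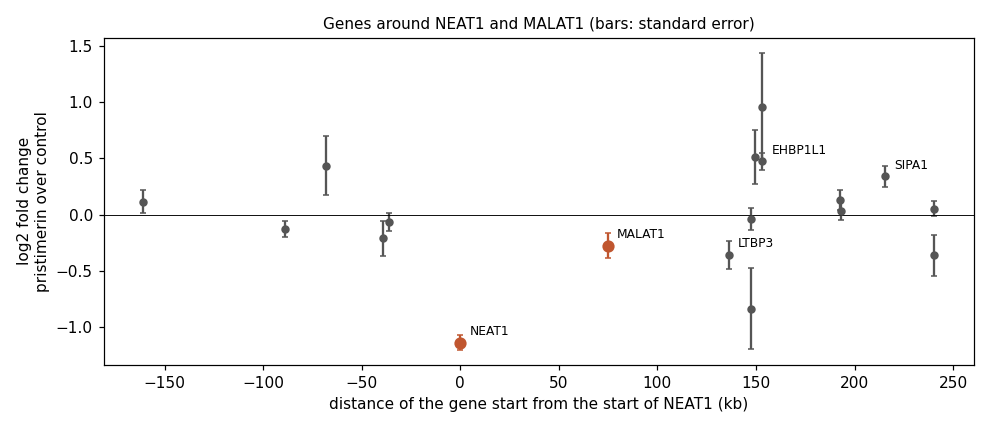
Log2 fold change with its SE (y axis, pristimerin over control) of the 18 tested genes described within 200 kb of NEAT1 or MALAT1, against the distance of the gene start from the start of NEAT1 (x axis, kb). NEAT1 at -1.14 stands at 0 kb and MALAT1 at -0.28 at 74.9 kb, and FRMD8 at -0.06 lies before them.

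The genes whose log2 CPM ran most like NEAT1 over the 6 libraries are given as a description. The 6 points fall into the 2 groups, so r follows the difference between them. Of the 10414 genes that averaged 5 CPM or more, they were CYP4V2 (r = 0.998), CYB5R1 (0.998), ID2-AS1 (0.997), HMOX1 (0.997) and C1orf162 (0.997). HMOX1, which encodes haem oxygenase 1, had 1.05 ± 0.318 CPM with pristimerin and 74.2 ± 20.0 CPM in control (log2 fold change -6.14, SE 0.212). Among 555 lncRNA genes the closest were ID2-AS1, CLN8-AS1 (0.996), TRIM16L (0.995), DPH5-DT (0.994) and DENND3-AS1 (0.993). Of these, ID2-AS1, CLN8-AS1, DPH5-DT and DENND3-AS1 overlap a more abundant gene on the opposite strand. For MALAT1 the closest genes were FAM241A (0.996), ZKSCAN1 (0.985), BMPR2 (0.985), LRCH3 (0.977) and HINT3 (0.976). The closest lncRNA genes were 2 without a symbol, then SVIL-AS1 (0.926), FTX (0.889) and LINC01515 (0.888), with log2 fold changes of -0.10, -0.31 and -0.40. SVIL-AS1 and FTX overlap SVIL and JPX on the opposite strand, which had 63.1 and 50.3% of their CPM. Of the 2 without a symbol, 1 overlaps NFE2L2 on the same strand, which had 1060% of its CPM.

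Library totals ranged from 19057219 to 30568593 counts. In a principal component analysis of log2 CPM the groups separated on component 1 (56.7% of variance), and component 2 (13.1%) set replicate 2 of both groups apart. Without both of those libraries 4 of the 9 genes were higher and 2 lower, beside 2468 higher and 2231 lower of 15326 genes tested in that fit. The numbers higher and lower were then 6 and 1 for the other paraspeckle proteins, 6 and 0 for cleavage and polyadenylation, 15 and 0 for nuclear speckles, 5 and 1 for the NEAT1 transcription factors, and 6 and 5 for the other lncRNA genes. All 14 monocytic markers had counts and 12 reached a mean of 1 CPM in each group (CD14 and CD68 did not), and their summed level was 3839 to 4140 CPM with pristimerin and 4384 to 4712 CPM in control. These markers did not move together. AZU1, ELANE, FCGR1A and ITGAM were counted as lower, with log2 fold changes of -0.485, -0.215, -0.327 and -0.714. The rest were not past the threshold, among them LYZ, the most abundant, at 0.151. Summed T cell markers reached at most 0.0525 CPM in any library (CD3D, CD3E, CD3G, CD2 and TRAC at 0 or not listed), erythroid markers 0.150 CPM (HBB, HBA1 and HBA2 at 0 or not listed), and epithelial and fibroblast markers 0.339 CPM (KRT18, KRT19, COL1A2 and COL3A1 at 0 or not listed). Of 5 B cell markers, 2 reached that mean, MS4A1 was at 0 or not listed, and the sum was 7.23 to 7.41 CPM with pristimerin and 6.25 to 6.61 CPM in control. Mitochondrially encoded genes took 5.11 to 5.35% of the counts with pristimerin and 4.56 to 4.95% in control. The 63 clustered histone genes, taken by symbol, mostly give mRNAs without a poly(A) tail, as MALAT1 and long NEAT1 do. They summed to 84.7, 75.0 and 85.4 CPM with pristimerin, against 61.7, 56.7 and 69.0 CPM in control. Whether these reads came from forms with a tail was not tested. A separate list of transcripts without a poly(A) tail summed to 19, 13 and 7 counts with pristimerin, against 9, 20 and 16 counts in control. Those counts were low and overlapped between the groups. How far any difference in this paragraph entered the NEAT1 result was not tested.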

How the data were processed

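Poly(A)-selected, strand-specific dUTP libraries of THP-1 RNA extracted with TRIzol were sequenced as 150 bp paired-end reads, per the labels' protocols. Per the submitters' processing notes the build was hg38. The sources used here give no aligner, counting tool or strand setting. The deposited counts are raw and one column per library. The deposited FPKM are proportional to those counts over a fixed gene length and the column total. A further deposited table repeats both.

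Counts were tested with edgeR 4.0.16 in R 4.3.3 (filterByExpr with a minimum count of 10 and total of 15, TMM, quasi-likelihood F test, group as the only term, Benjamini-Hochberg over 15305 genes, threshold 0.05), 3 pristimerin against 3 control libraries. The filter left out 10031 genes. The procedure was tested on counts simulated with few changed genes, a fixed effect size and a fixed dispersion. These data differ, with many genes called in both directions, so that test does not cover them. Each SE is the size of the log2 fold change over the root of its F statistic. CPM per library are TMM-scaled, with factors of 0.9703 to 1.031. CPM of summed markers, ranks and the shares of counts use library totals. p-values reflect only library-to-library spread.

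Alternatives were DESeq2 1.42.0 (size factors or test), upper-quartile scaling, library totals, no filter, a minimum mean of 5 CPM, limma-voom (limma 3.58.1), limma with a pseudocount of 1 or 0.1 on FPKM, log2-transformed, where FPKM averaged 0.1 or more, a replicate block, protein-coding genes with NEAT1 and MALAT1 only, and leaving out each library. Named from each list were up to 3 genes each way with the largest absolute log2 fold change among those past the threshold with a mean of at least 5 CPM. HNRNPK, the other heterogeneous nuclear ribonucleoproteins and the remaining speckle proteins were named after their values were seen. Of 42 genes named besides the 9, 11 overlap a gene of at least 20% of their CPM. The genes and lists were chosen with earlier results of these data known. Some genes of the region and of the lists are not reported here. Sequences come from GENCODE release 29 transcripts.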

Additional observations from a re-analysis of the deposited data

How the results depend on the processing

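No called value changed sign, whereas SFPQ and RBM14, which were not called, took either sign. Genes called higher numbered 2216 and lower 2313, against 2361 and 2219 with DESeq2 size factors. The DESeq2 test called 2393 higher and 1676 lower over all genes, and limma-voom 2199 higher and 2282 lower. No share over all genes is given for the list counts at an unadjusted p. Higher calls were 1392 with library totals, 1081 on log2(FPKM + 1) and 1084 on log2(FPKM + 0.1). Leaving out one library gave 1534 (without control replicate 3) to 2329 lower calls. Of the 9 genes, 2 were called higher with library totals and both FPKM fits, instead of 4. The lower calls were 2 instead of 1 with upper-quartile scaling, library totals, no filter, a minimum mean of 5 CPM, the replicate block and both replicate 2 libraries left out (added after seeing the data), and 1 to 2 when one library was left out. Of 135 listed genes, 27 were called higher and 10 lower. Higher calls were 16 with upper-quartile scaling, 15 with library totals, 45 with the replicate block, 8 on log2(FPKM + 1) and 7 on log2(FPKM + 0.1). Lower calls were 18, 19 and 17 with upper-quartile scaling, library totals and the replicate block, and 4 to 11 when one library was left out. The cause of these differences was not tested. MALAT1 was the only one of the 9 genes whose call the block changed. With the replicate block 3150 genes were higher and 2948 lower, and of the 20 cleavage and polyadenylation genes 9 were higher. The deviations of same-numbered libraries correlated at 0.098, 0.137 and 0.037, so the numbers were not taken to pair samples, although each library correlated best with the library of its own number, a hint from the data and not from the design. NFKB1, SP1, SRSF1, SRSF10 and SIPA1 lost their calls in both FPKM fits. RUNX3 also did, and without both replicate 2 libraries. Isoforms of NEAT1 cannot be resolved in counts per gene.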
